A study of Ostrinia furnacalis with 30 samples.

Results

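Apolipophorins are the protein components of lipophorin, the particle that carries lipids through insect hemolymph. The precursor called apolipophorin is cut into apolipophorin I and II, which form the core of the particle, and it belongs to the large lipid transfer protein family together with vitellogenin, the yolk protein precursor. In insects such as the tobacco hornworm, lipophorin is made in the fat body, collects diacylglycerol from fat body and gut, and gains the small exchangeable protein apolipophorin III when adipokinetic hormone mobilises fat for flight. The 3 gene models described as apolipophorins in the Asian corn borer, *Ostrinia furnacalis*, make up 3 of the 20852 gene models in the deposited table. They were chosen by their gene descriptions and identifiers, not by their values, but with earlier results of these data known.

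The samples were wild type throughout. Whole animals were taken as embryo (labelled egg), 1st instar, 3rd instar and 5th instar larva, pupa and adult, and fat body, hemolymph, midgut and silk gland were taken from 3rd instar larvae, with 3 libraries for each of these 10 groups and 30 in all. Each library came from RNA of pooled animals or pooled organs, and the pupal and adult pools mixed females and males. Embryos were collected shortly after oviposition. The labels number the replicates without saying that they came from separate rearings, so the p-values below measure the spread between these pools. In such bulk samples fewer cells of a type and less RNA per cell cannot be told apart.

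Values are FPKM, fragments per kilobase of gene length and per 1000000 of an effective library size set by the authors' scaling. Between 10908503 and 17774377 fragments per library could be recovered on gene models, and the effective size was 0.447 to 2.42 times that total, so the scaling between groups enters every comparison of FPKM. The factor was 2.36 to 2.42 in embryo and 0.541 to 0.580 in fat body. The labelled tissues carried their own markers. The summed level of 7 fat body storage proteins (arylphorins and relatives) was 125812 to 199779 FPKM in fat body, that of 8 hemocyte markers was 3898 to 6543 FPKM in hemolymph, that of 48 midgut peptidases (of which 30 were highest in midgut among the tissues and 8 were at 0 in all its libraries) was 7735 to 13234 FPKM in midgut, and that of 5 silk proteins was 146392 to 177490 FPKM in silk gland. The silk gland sum was carried by the fibroin light chain-like (mean 127859 FPKM) and seroin-like (29612 FPKM) models. The fibroin heavy chain-like models of that list had means of only 0.0397, 1.14 and 0.0314 FPKM in silk gland. Replicates 2 of the 1st and of the 3rd instar had the highest values of their groups for both apolipophorins-like models.

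The gene model LOC114366658 (symbol apolpp in RefSeq, description apolipophorins-like) lies on scaffold NW_021130896.1 from 677888 to 712622 on the plus strand, and 114366658's gene length in the annotation is 9859 bases. The second apolipophorins-like model, LOC114352983, lies on NW_021131754.1 from 72135 to 78773 on the plus strand, and 114352983's gene length is only 742 bases. Both carry the domain label Vitellogenin_N, the lipid-binding domain at the start of large lipid transfer proteins. The model LOC114355821, described as apolipophorin-3-like after the exchangeable apolipophorin, lies on NW_021132795.1 from 2831 to 4419 on the minus strand, and 114355821's gene length is 725 bases. The digits of each name are the gene identifier in the table. All 3 are annotated as protein coding, and they lie on 3 different scaffolds. The positions are those of the deposited table, whose reads were mapped to the scaffolds of the first version of the species' assembly. The FPKM of LOC114352983 rest on few fragments, from 0 to 1627 per library, against 55 to 95307 for LOC114366658 and 286 to 141325 for LOC114355821. Whether LOC114352983 is a complete gene, and whether reads were shared between it and LOC114366658, could not be checked from the deposited values, and its levels and ratios carry that limit.

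In tissues of 3rd instar larvae all 3 models were highest in the fat body, in every one of its libraries. For LOC114366658, the fat body libraries had 970, 613 and 985 FPKM, against 6.56, 16.1 and 9.79 FPKM in hemolymph, 0.402, 0.747 and 0.557 FPKM in midgut and 5.19, 4.11 and 8.91 FPKM in silk gland. The lowest fat body library thus lay above every library of the 3 other tissues. For LOC114355821, the fat body libraries had 21566, 11862 and 16349 FPKM, against 321, 252 and 282 FPKM in hemolymph, 34.0, 47.7 and 26.4 FPKM in midgut and 128, 84.7 and 97.5 FPKM in silk gland. Its mean in fat body, 16592 ± 4857 FPKM (SD, n = 3), placed it at rank 10 of all gene models there, and LOC114366658 stood at rank 226 with 856 ± 211 FPKM (SD, n = 3). For LOC114352983, the fat body libraries had 71.4, 136 and 224 FPKM, against 4.42, 9.19 and 8.44 FPKM in hemolymph, 0, 0.236 and 0.0902 FPKM in midgut and 1.26, 0.245 and 0 FPKM in silk gland. Its spread in fat body was wider, at 143 ± 76.4 FPKM (SD, n = 3), and again no fat body library overlapped another tissue.

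**Figure D1:**
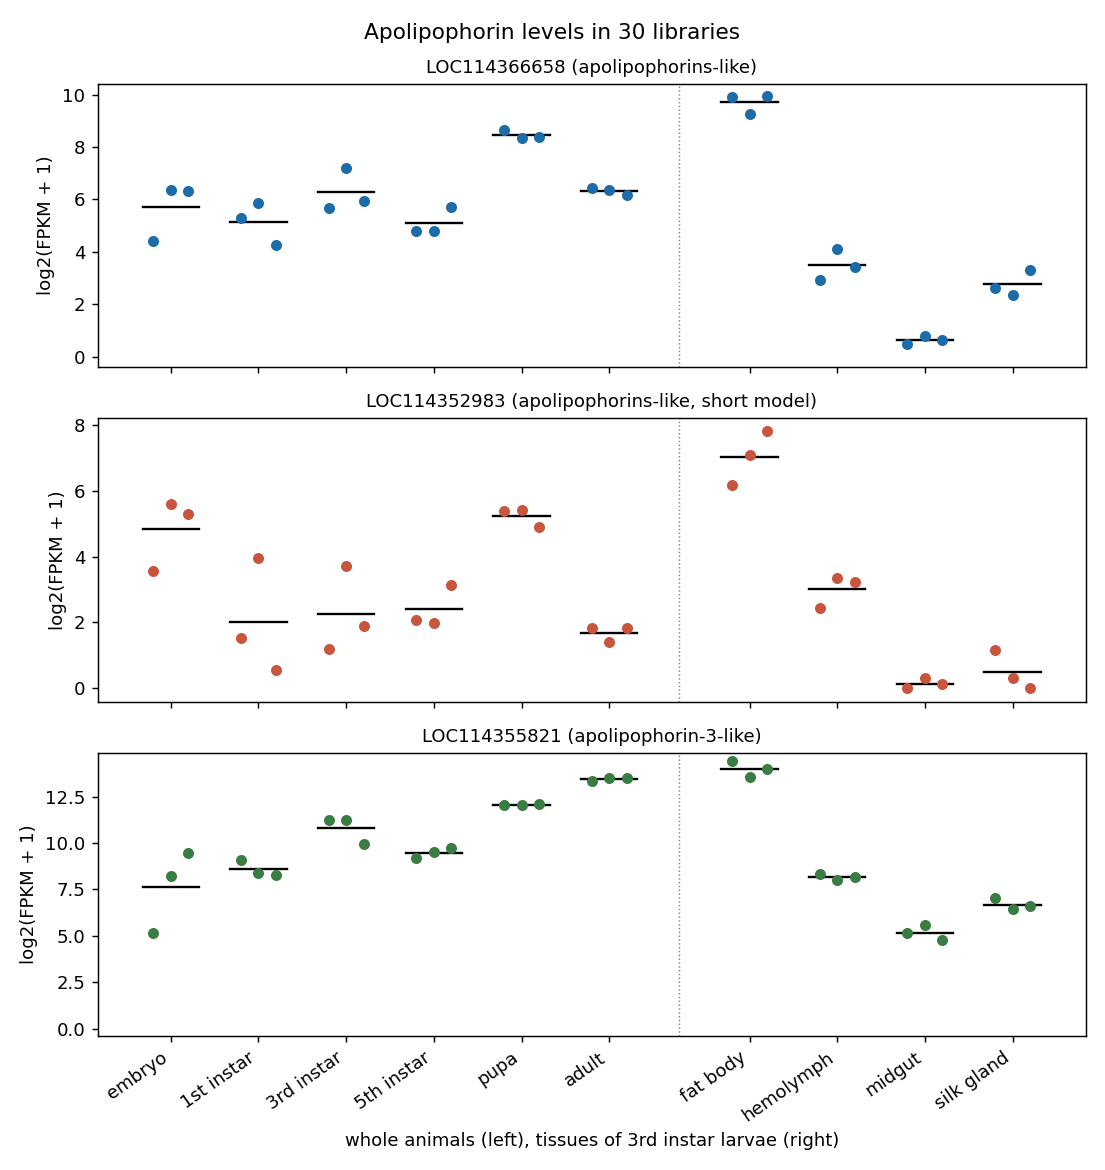
Level of each apolipophorin model as log2(FPKM + 1) in the 30 libraries, whole animals on the left of the dotted line and tissues of 3rd instar larvae on the right; each point is 1 library (replicates 1 to 3 from left to right) and each bar the mean of the 3 log values. Among the tissues all 3 models have their highest mean in fat body and their lowest in midgut, and all 3 are high in the pupa, while only LOC114355821 is higher in the adult than in the pupa.

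Each pair of groups was tested by limma-trend on log2(FPKM + 1) over the 6 libraries, for gene models that reached 1 FPKM in 3 or more of them. Calls required a log2 fold change of 1 or more in either direction and a p under 0.05 after Benjamini-Hochberg adjustment across every gene in the test. Fold changes on this scale understate the change of genes with low values. Between fat body and the 3 other tissues, 9 of 9 tests called the member higher in fat body. In 3 of the 9 the other tissue had fewer than 3 libraries at 1 FPKM, so the member passed the filter only through fat body and had to differ. These were LOC114366658 and LOC114352983 over midgut and LOC114352983 over silk gland, and they are given as descriptions. Among all genes tested, 23.3% were called higher in fat body than in hemolymph, 16.0% higher than in midgut and 18.4% higher than in silk gland. The 3 comparisons use the same fat body libraries and are not independent of each other.

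Over hemolymph, the log2 fold change in fat body was 6.23 for LOC114366658 (SE 0.34, adjusted p = 6.15e-06), 5.82 for LOC114355821 (SE 0.24, adjusted p = 1.84e-06) and 4.02 for LOC114352983 (SE 0.43, adjusted p = 0.000203). Over midgut it was 9.07 for LOC114366658 (SE 0.25, as a description) and 8.81 for LOC114355821 (SE 0.31, adjusted p = 9.97e-07). Over silk gland it was 6.95 for LOC114366658 (SE 0.32, adjusted p = 5.9e-06) and 7.29 for LOC114355821 (SE 0.28, adjusted p = 3.01e-06). For the short model LOC114352983 it was 6.88 over midgut (SE 0.40) and 6.53 over silk gland (SE 0.48), and these values depend on the pseudocount. In fragments it had 3041 in fat body, against 3 in midgut and 6 in silk gland. Per 1000000 fragments, the fat body level was 894 times that of midgut (95% interval 306 to 4.34e+03) and 355 times that of silk gland (95% interval 163 to 967), where the intervals are exact and cover counting error only. With a pseudocount of 0.1 the log2 fold changes over midgut were 10.32 for LOC114366658 and 9.45 for LOC114352983, and over silk gland 8.49 for LOC114352983. Scaled by the recovered total, where the median of all genes over hemolymph was -1.28, the values over hemolymph were 4.68 for LOC114366658, 4.22 for LOC114355821 and 2.50 for LOC114352983, and all stayed called.

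The fat body was also set beside the whole larva of the same instar. All 3 models were called higher in fat body, where 16.4% of all genes tested were called higher. Whole 3rd instar libraries had 50.0, 147 and 60.0 FPKM of LOC114366658, all below the fat body libraries, and the log2 fold change of fat body over whole larva was 3.44 (SE 0.45, adjusted p = 0.00119). For LOC114355821 the whole larvae had 2454, 2416 and 995 FPKM, and the log2 fold change was 3.16 (SE 0.46, adjusted p = 0.00201). For LOC114352983 they had 1.31, 12.2 and 2.68 FPKM, and the log2 fold change was 4.75 (SE 0.69, adjusted p = 0.00194), or 5.48 without 3rd instar replicate 2.

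Outside the fat body, hemolymph stood above midgut for all 3 models. In this comparison 17.9% of all genes tested were called higher, and all 3 members were, but LOC114366658 and LOC114352983 passed the filter only through hemolymph, and their calls are a description. The log2 fold change was 2.84 for LOC114366658 (SE 0.30), 2.98 for LOC114355821 (SE 0.22, adjusted p = 1.49e-05) and 2.87 for LOC114352983 (SE 0.27). For LOC114352983 the 406 hemolymph fragments against 3 midgut fragments give a ratio per 1000000 of 137 (95% interval 46.6 to 668). With a pseudocount of 0.1 the log2 fold change of LOC114352983 was 5.26 and that of LOC114366658 was 3.97. Scaled by the recovered total the 3 values were 3.60 for LOC114366658, 3.88 for LOC114355821 and 3.57 for LOC114352983, beside a median of 0.74 over all genes.

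In hemolymph over silk gland, 2 of the 3 were called higher in hemolymph, where 18.8% of all genes tested were, namely LOC114355821 (log2 fold change 1.47, SE 0.19, adjusted p = 0.000438) and LOC114352983 (2.51, SE 0.38). The second of these also passed the filter only through hemolymph, so its call is a description. It was at 4.30 with a pseudocount of 0.1. The hemolymph and silk gland values of LOC114366658 overlapped, with a log2 fold change of 0.72 (SE 0.36, adjusted p = 0.13). This last comparison turned on the scaling. With the values scaled by the recovered total of fragments, the median of all genes shifted to 1.48 and LOC114366658 was called higher in hemolymph at 2.30 (adjusted p = 0.000484), beside 3.32 for LOC114355821 and 3.41 for LOC114352983.

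In midgut over silk gland 2 members were tested. LOC114355821 was called lower in midgut, as were 16.6% of all genes tested. LOC114366658 was also called lower, but it passed the filter only through silk gland and its call is a description. The log2 fold change was -2.12 for LOC114366658 (SE 0.30) and -1.51 for LOC114355821 (SE 0.26, adjusted p = 0.00245). Scaled by the recovered total, that of LOC114355821 came to -0.56 (adjusted p = 0.0664) and was no longer called, while the median of all genes was 0.80. That of LOC114366658 stayed called at -1.30 under this scaling and was -3.16 with a pseudocount of 0.1. The model LOC114352983 had too few fragments in both tissues to be tested, with 0, 2 and 1 in midgut and 5, 1 and 0 in silk gland. The floor of 3 fragments was reached in a single one of these 6 libraries.

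The low values outside the fat body can be read beside the storage proteins that mark it. The sum is carried by a few arylphorin models, so the proteins were also read singly. In hemolymph, the summed storage proteins stood at 0.333% of their fat body level (119 to 1045 FPKM), while LOC114366658 stood at 1.26%, LOC114355821 at 1.72% and LOC114352983 at 5.12% of theirs. In midgut the storage proteins stood at 0.00581% (0.57 to 25.8 FPKM), against 0.0664% for LOC114366658 and 0.217% for LOC114355821. In silk gland the storage proteins stood at 0.2% (230 to 444 FPKM), against 0.709% for LOC114366658, 0.349% for LOC114352983 and 0.622% for LOC114355821. Taken singly, 5 of the 7 storage proteins stood below every member in hemolymph as a share of fat body, and 2 stood above every member. These were LOC114359670 at 29.1% (261 ± 445 FPKM in hemolymph, 895 ± 895 in fat body) and LOC114359671 at 63.6% (13.8 ± 23.8 and 21.7 ± 24.7 FPKM) (SD, n = 3 each). With SDs as large as the means or larger, these 2 shares are uncertain. In midgut and in silk gland 6 of the 7 stood below every member and none above all of them. None of the 7 was at 0 in all hemolymph or midgut libraries, and 1 was in silk gland. The part of carried-over fat body RNA in the members' values was not tested.

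**Figure D2:**
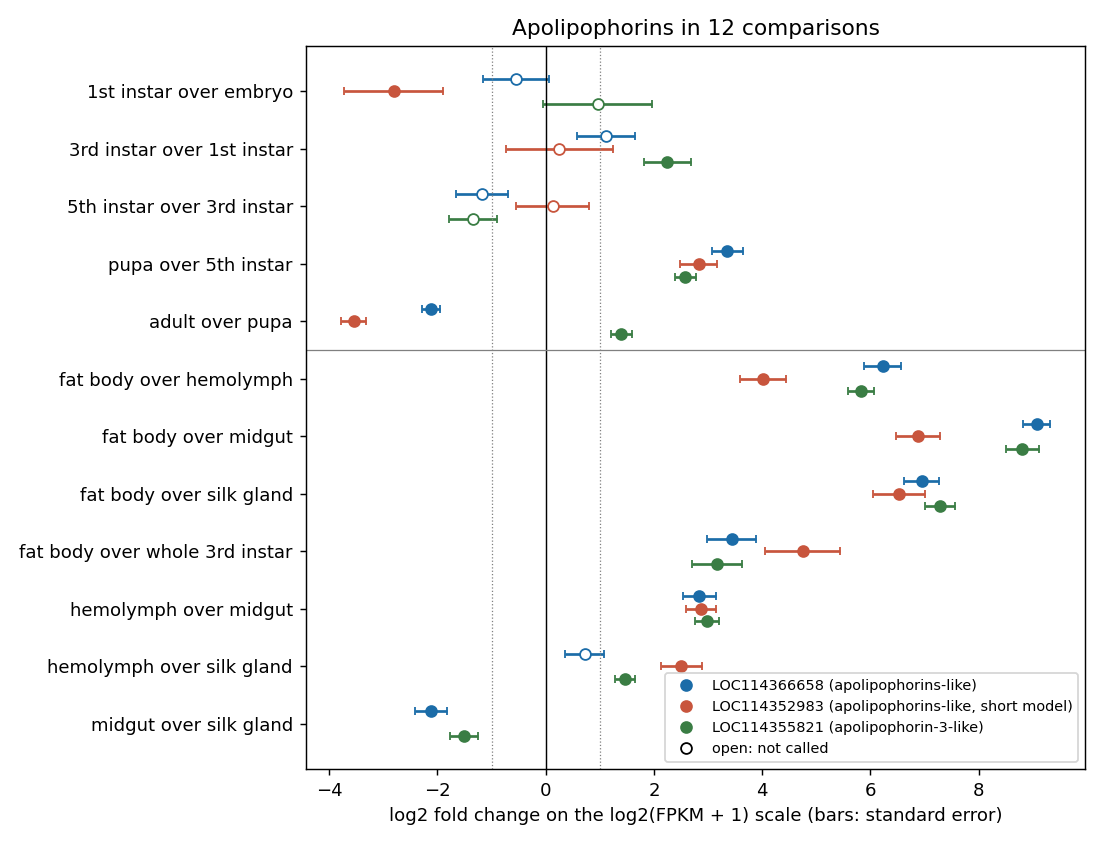
Log2 fold changes of the apolipophorin models on the log2(FPKM + 1) scale in 12 comparisons of 3 libraries against 3; filled points were called at an adjusted p under 0.05 and a log2 size of at least 1, open points were not, bars are standard errors, and the dotted lines mark a log2 fold change of 1 in either direction. Fat body stands far above each other tissue for all 3 models, and in the adult over pupa row the models were called in opposite directions, with LOC114355821 at 1.40, LOC114366658 at -2.12 and LOC114352983 at -3.55.

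Across development, the most uniform change of the 3 models lay between the last larval stage and the pupa. For LOC114366658, the pupae had 400, 327 and 330 FPKM, against 26.9, 26.4 and 51.9 FPKM in 5th instar larvae. For LOC114352983, the pupae had 40.7, 42.0 and 28.8 FPKM, against 3.26, 2.96 and 7.72 FPKM in 5th instar larvae. For LOC114355821, the pupae had 4222, 4193 and 4403 FPKM, against 574, 741 and 862 FPKM in 5th instar larvae. No pupal library overlapped a 5th instar library for any of them. All 3 were called higher in pupae, where 7.82% of all genes tested were called higher. The log2 fold change was 3.36 for LOC114366658 (SE 0.29, adjusted p = 0.00104), 2.83 for LOC114352983 (SE 0.34, adjusted p = 0.0025) and 2.58 for LOC114355821 (SE 0.19, adjusted p = 0.000654). Scaled by the recovered total, these values were 4.27, 3.70 and 3.5 and the median of all genes was 0.78 in place of 0.03, and all 3 were called on both scales.

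The pupal libraries with these high apolipophorin levels held little of most storage proteins of the larval fat body. The sum of the 7 was 427 to 692 FPKM in pupae, against 3278 to 15740 FPKM in 5th instar larvae. Of the 7, 6 were called lower and none higher in pupae, beside 12.4% of all genes tested called lower. But 3 of these 6 passed the filter only through the 5th instar and had to differ. The pupal sum was carried by LOC114359670, which was not called, at 483 ± 103 FPKM against 964 ± 736 FPKM in 5th instar larvae (SD, n = 3 each). The median log2 fold change of the 7 was -5.12. In the adult the sum was 14.6 to 54.2 FPKM and in the embryo 0 to 0.995 FPKM, with 2 of the 7 at 0 in all 3 embryo libraries. In pupae over 5th instar larvae the apolipophorins and most of these storage proteins thus changed in opposite directions, while both sets were highest in the fat body among the tissues.

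**Figure D3:**
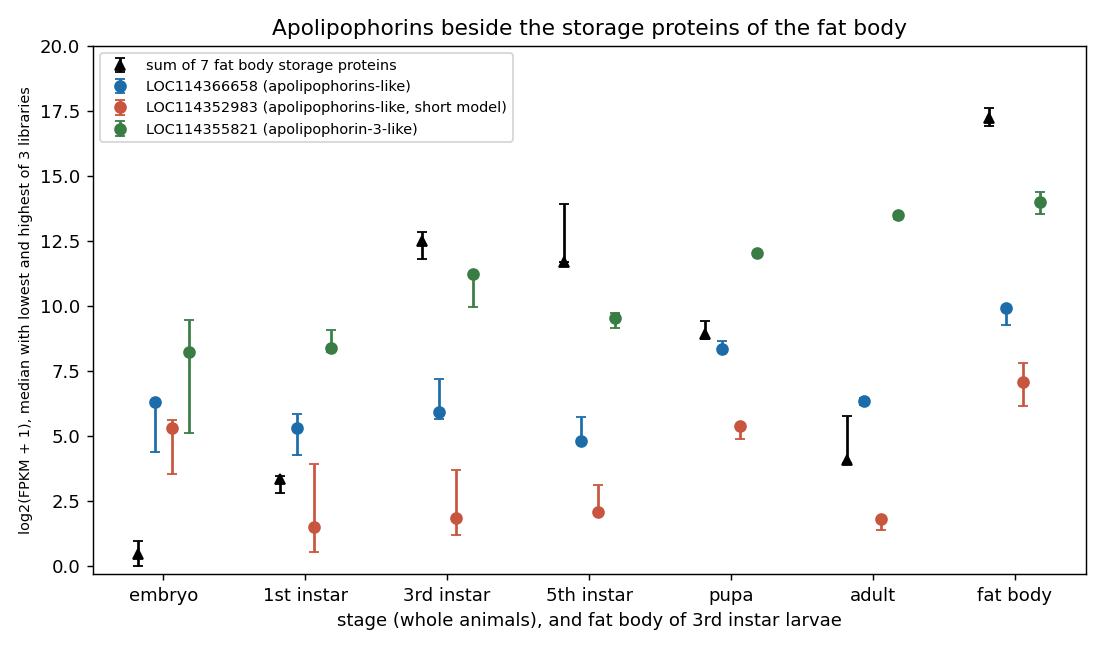
Apolipophorin models beside the summed level of 7 storage proteins that mark the larval fat body, as log2(FPKM + 1), in whole animals of 6 stages and in fat body of 3rd instar larvae; points are the median and bars the lowest and highest of 3 libraries. The storage proteins stand at 427 to 692 FPKM in the pupa and 14.6 to 54.2 FPKM in the adult, while LOC114355821 stands at 4193 to 4403 FPKM in the pupa and 10376 to 11770 FPKM in the adult.

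Between adult and pupa the apolipophorin-3-like model and both apolipophorins-like models moved in opposite directions. The adults had 10376, 11770 and 11715 FPKM of LOC114355821, against 4222, 4193 and 4403 FPKM in pupae, and it held rank 3 among all gene models by mean FPKM in both stages. The adults had 86.6, 81.5 and 71.8 FPKM of LOC114366658 and 2.54, 1.63 and 2.55 FPKM of LOC114352983, and every adult library lay below every pupal one for both. Of all genes tested, 21.9% were called higher and 25.0% lower in adults. The log2 fold change was 1.40 for LOC114355821 (SE 0.19, adjusted p = 0.000703), -2.12 for LOC114366658 (SE 0.16, adjusted p = 6.8e-05) and -3.55 for LOC114352983 (SE 0.23, adjusted p = 4.15e-05). The call of LOC114355821 was lost when the values were scaled by the recovered total, where its log2 fold change was 0.65 (adjusted p = 0.00217) and the median of all genes was -0.75, and also with all stage libraries in 1 fit (1.40, adjusted p = 0.101). Scaled by the recovered total, LOC114366658 and LOC114352983 stayed called at -2.88 and -4.29. The 3 adult libraries of LOC114355821 lay above its pupal ones with both scalings.

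The ratio between 2 members within a library does not depend on the scaling between libraries. Per length, LOC114355821 exceeded LOC114366658 in all 30 libraries. In the adult it was 142 ± 21.7 times as high (SD, n = 3, from 120 to 163), against 12.2 ± 1.49 times in the pupa (SD, n = 3, from 10.5 to 13.4). By the means of the log2 ratios the adult ratio was 11.6-fold that of the pupa, and the libraries did not overlap. By exact two-sided permutation of the 6 libraries the p-value was 0.1, which is the smallest that 3 libraries against 3 allow, and adjusted over the 19 ratio comparisons it was 0.238. The ratio in the adult was above that of every other group, and the next was the midgut, with 65.3 ± 18.6 (SD, n = 3). In fat body it was 19.4 ± 2.82 (SD, n = 3), in silk gland 18.7 ± 7.03, in hemolymph 31.1 ± 16.8 and in whole 3rd instar larvae 27.4 ± 18.8, and the libraries of these 4 groups overlapped.

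The ratio of the short model LOC114352983 to LOC114366658 set embryo and hemolymph apart. It was 0.538 ± 0.0458 in the embryo (SD, n = 3) and 0.702 ± 0.147 in hemolymph (SD, n = 3), and each of these 6 libraries was above all libraries of every other group. In the 1st instar it was 0.109 ± 0.124 and in fat body 0.174 ± 0.0869 (SD, n = 3 each). On the log2 scale, on which the ratios were compared, the mean of the 1st instar minus that of the embryo was -2.96 and the mean of fat body minus that of hemolymph was -2.16. Neither pair overlapped, with an exact permutation p of 0.1 in each (adjusted 0.238). The lowest mean was that of the adult, at 0.0282 ± 0.0078 (SD, n = 3). In midgut and silk gland the ratio rests on 0 to 5 fragments of the short model and was not compared. Of the 19 ratio comparisons, 8 had groups that did not overlap, and all 8 reached the smallest p of 0.1.

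**Figure D4:**
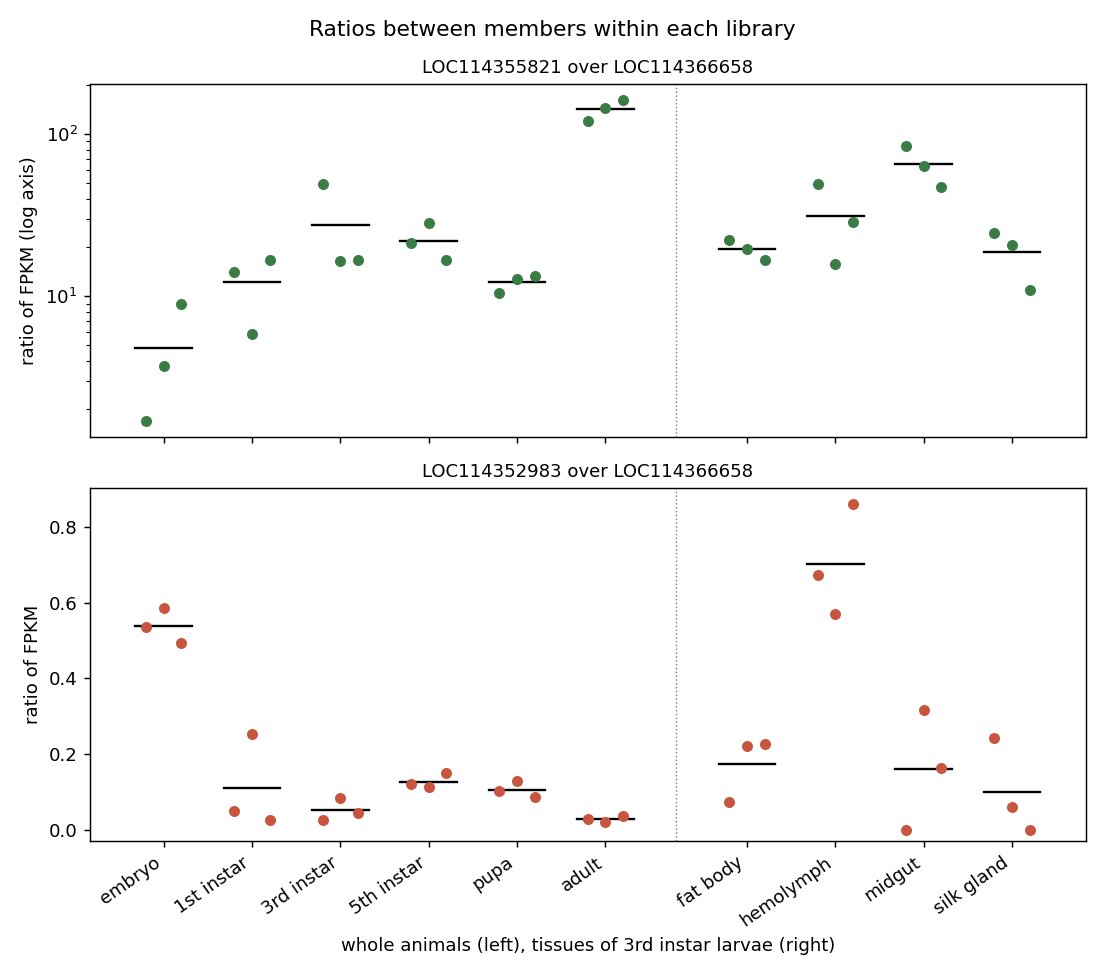
Ratio of FPKM between members within each library, LOC114355821 over LOC114366658 above (log axis) and LOC114352983 over LOC114366658 below (linear axis); each point is 1 library (replicates 1 to 3 from left to right) and each bar the mean of 3. The adult libraries, at 120 to 163, stand above all others in the upper panel, and the embryo (0.494 to 0.585) and hemolymph (0.571 to 0.861) libraries stand above all others in the lower one.

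The earlier stages showed fewer differences beyond the spread between libraries. The embryo libraries had 20.2, 81.7 and 78.0 FPKM of LOC114366658, 10.8, 47.8 and 38.5 FPKM of LOC114352983 and 34.3, 302 and 702 FPKM of LOC114355821, with replicate 1 the lowest for all 3. The 1st instar libraries had 38.4, 57.5 and 18.4 FPKM of LOC114366658, 1.89, 14.5 and 0.486 FPKM of LOC114352983 and 541, 333 and 305 FPKM of LOC114355821. Between 1st instar and embryo, 1 of the 3 was called, lower in the 1st instar as were 24.7% of all genes tested, and none was called higher, against 34.6% of all genes. That was LOC114352983, with a log2 fold change of -2.81 (SE 0.91). It reached 1 FPKM in 2 of the 3 libraries of the 1st instar, so it passed the filter only through the embryo and its call is a description. Its call was lost without any one of embryo replicate 2 or 3 or 1st instar replicate 1 or 3 (adjusted p between 0.0681 and 0.0908) and without the filter (adjusted p = 0.0942).

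The other 2 members were not called in this pair. For LOC114366658 the log2 fold change was -0.54 (SE 0.61, adjusted p = 0.442), and it was called lower in the 1st instar without embryo replicate 1 (-1.19, adjusted p = 0.0455). For LOC114355821 it was 0.96 (SE 1.00, adjusted p = 0.406), and -0.27 without embryo replicate 1. This pair also had the largest scaling shift among the consecutive stages. Scaled by the recovered total, the median of all genes was -0.96 in place of 0.14, and the members were at -1.78 (LOC114366658, adjusted p = 0.0385), -4.00 (LOC114352983) and -0.28 (LOC114355821).

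From the 1st to the 3rd instar 1 of the 3 was called, where 7.72% of all genes tested were called higher in the 3rd instar. It was LOC114355821, with a log2 fold change of 2.25 (SE 0.43, adjusted p = 0.0146). Without 1st instar replicate 2 or 3 the adjusted p was 0.0583 or 0.0774, and without the filter it was 0.0631. The values of the apolipophorins-like models overlapped between both instars, with log2 fold changes of 1.12 for LOC114366658 (SE 0.54, adjusted p = 0.218) and 0.25 for LOC114352983 (SE 0.99, adjusted p = 0.897).

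Between the 5th and the 3rd instar, limma-trend called 0 of the 3, where 10.9% of all genes tested were called in either direction. At an unadjusted p under 0.05 the count was 2, and limma-voom on the recovered fragments also called 0. The log2 fold change was -1.17 for LOC114366658 (SE 0.48, adjusted p = 0.176), 0.13 for LOC114352983 (SE 0.67, adjusted p = 0.927) and -1.34 for LOC114355821 (SE 0.44, adjusted p = 0.109). Without 3rd instar replicate 3, LOC114355821 was called lower in the 5th instar (-1.77, adjusted p = 0.0378).

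Ordered by mean FPKM over the stages, LOC114366658 stood highest in the pupa (352 ± 41.7 FPKM), then in the 3rd instar (85.6 ± 53.3), adult (80.0 ± 7.5), embryo (60.0 ± 34.5), 1st instar (38.1 ± 19.5) and 5th instar (35.1 ± 14.6) (SD, n = 3 each). Among neighbours in this order only the step below the pupa exceeded the spread, since the libraries of all later neighbours overlapped. Between stages further apart, the adult was called above the 5th instar (log2 fold change 1.23, SE 0.29, adjusted p = 0.00838) and above the 1st instar (1.19, SE 0.37, adjusted p = 0.0239). Of all genes tested, 2431 of 11993 and 2663 of 11698 were called higher in these pairs. In fragments per 1000000 the adult and 1st instar libraries overlapped. The pupa was called above the 3rd instar (log2 fold change 2.19, SE 0.41, adjusted p = 0.00509), as were 16.8% of all genes tested. For LOC114352983 the order was pupa (37.2 ± 7.27 FPKM), embryo (32.4 ± 19.3), 1st instar (5.62 ± 7.72), 3rd instar (5.41 ± 5.95), 5th instar (4.65 ± 2.67) and adult (2.24 ± 0.527), and each neighbour overlapped the next except adult and 5th instar. These 2 did not overlap, but the log2 fold change of adult over 5th instar, -0.72 (SE 0.35, adjusted p = 0.118), was not called, where 44.9% of all genes tested were called in either direction. Both orders hold for FPKM. In fragments per 1000000 recovered the embryo came first for LOC114352983 (57.0 against 46.2 in the pupa, with overlap) and second for LOC114366658 (1401, after 5803 in the pupa and before 791 in the adult).

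For LOC114355821 the order was adult (11287 ± 789 FPKM), pupa (4272 ± 114), 3rd instar (1955 ± 832), 5th instar (725 ± 145), 1st instar (393 ± 129) and embryo (346 ± 336) (SD, n = 3 each). Among neighbours in this order, only the last 2 overlapped. The order holds for FPKM as deposited. Scaled by the recovered total, the embryo (817 ± 790) stood between the 3rd instar (1413 ± 552) and the 5th instar (629 ± 68.4) and overlapped both. The 1st instar (391 ± 121) was then the lowest (SD, n = 3 each). The pupa over the 3rd instar had a log2 fold change of 1.24 (SE 0.42, adjusted p = 0.0506), which missed the threshold, and was called without 3rd instar replicate 1 (1.46, adjusted p = 0.0379) or when scaled by the recovered total (2.41, adjusted p = 0.000427, against a median of 1.03 over all genes). The 5th over the 1st instar had a log2 fold change of 0.91 (SE 0.27, adjusted p = 0.0368), below the fold required, among 26.6% of all genes called in either direction. It reached 1.16 without 1st instar replicate 1 and 1.07 without 5th instar replicate 1, and was then called.

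The place of the fat body relative to whole animals depended on the scaling. In FPKM, the fat body mean of LOC114366658 was 856 against 352 in the pupa, with no overlap. In fragments per 1000000 recovered, it was 4708 ± 1231 in fat body and 5803 ± 971 in the pupa (SD, n = 3 each), and the libraries overlapped. For LOC114355821, fat body stood above the adult in FPKM, and at 6684 ± 1884 against 8125 ± 1334 fragments per 1000000, again with overlap. For LOC114352983 the embryo had 57.0 ± 33.6 fragments per 1000000, beside 60.0 ± 34.0 in fat body and 46.2 ± 10.9 in the pupa, and the 3 groups overlapped.

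**Figure D5:**
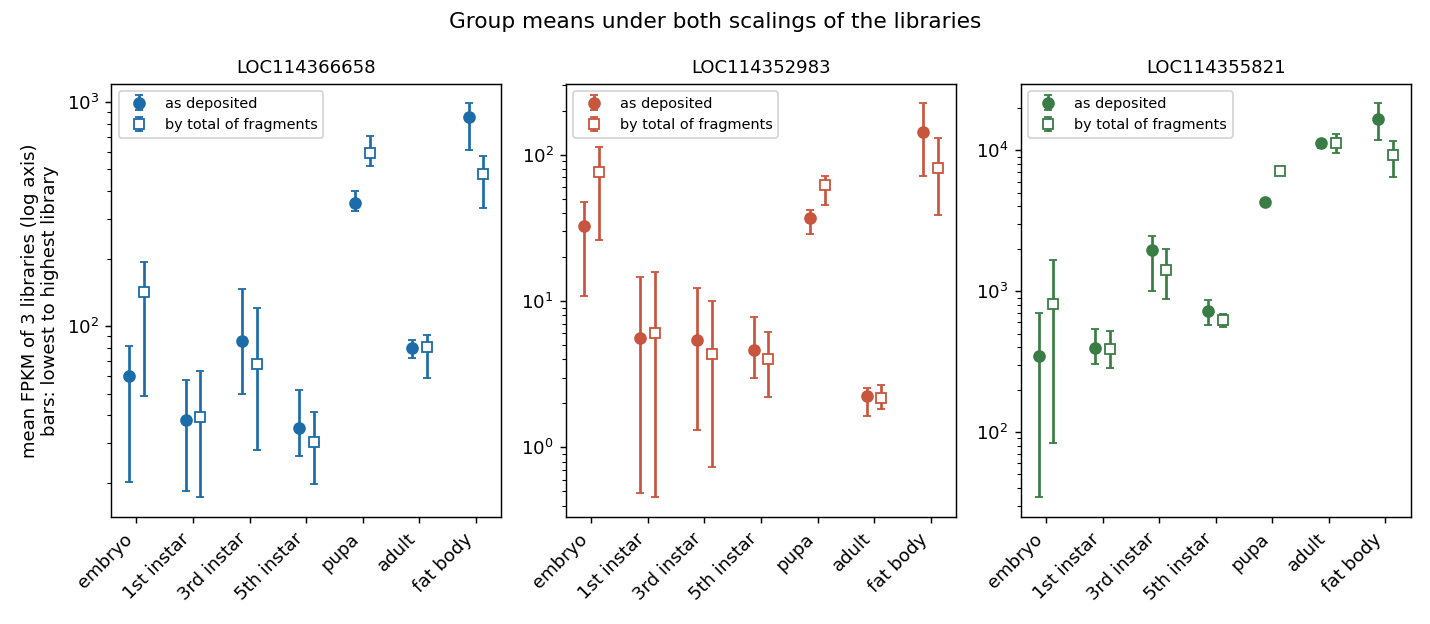
Mean level of each apolipophorin model over 3 libraries on a log axis, in whole animals of 6 stages and in fat body of 3rd instar larvae, as deposited (filled circles) and scaled by the recovered total of fragments (open squares); bars run from the lowest to the highest library. Under the second scaling embryo and pupa stand higher and fat body lower, and the fat body libraries overlap those of the pupa for LOC114366658 and those of the adult for LOC114355821.

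The deposited values cover 6 gene models with the Vitellogenin_N label, among them the 2 apolipophorins-like members. The other 4 are LOC114353046, described as vitellogenin-like, and LOC114349955, LOC114351683 and LOC114352783, which have no described function. Of the 6, all but the vitellogenin-like model were tested in the fat body comparisons. With the deposited scaling all 5 were called higher in fat body over hemolymph and whole larva, beside 23.3% and 16.4% of all genes tested. Over hemolymph these 5 had a median log2 fold change of 1.72, beside -0.02 over all genes tested. All 5 were also called higher over midgut and silk gland, but 4 of them over midgut and 3 over silk gland passed the filter only through fat body, so nothing is read from those counts. The 3 undescribed models had fat body means of 57.1 ± 16.1, 28.9 ± 10.2 and 42.9 ± 10.2 FPKM. Their hemolymph means were 16.5 ± 4.01, 12.7 ± 3.21 and 14.5 ± 1.46 FPKM (SD, n = 3 each). Scaled by the recovered total, their fat body means were 32 ± 10.2, 16.2 ± 5.94 and 24 ± 6.57. Their hemolymph means were then 27.9 ± 6.45, 21.7 ± 6.2 and 24.7 ± 3.24 (SD, n = 3 each). Under this scaling the fat body and hemolymph libraries overlapped for each of the 3, while both apolipophorins-like members stayed called over hemolymph. The vitellogenin-like model had 714, 417 and 404 FPKM in the adult and at most 1.46 FPKM in any library of another group. In the adult its level per length was thus above that of LOC114366658 in each library.

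Genes of lipid metabolism, picked by description, were counted beside the members. The counts are for the deposited scaling and were not repeated with the recovered total. With that total the median of all genes in fat body over hemolymph was -1.28. Of 25 models for fatty acid synthesis and binding, 8 of 9 tested were called higher and none lower in fat body over hemolymph, with a median log2 fold change of 3.95, and 7 of 9 were higher over silk gland. Over midgut 6 were higher and 10 lower of 16 tested, and the median was -3.87. Of all genes tested, 16.5% were called lower in fat body over hemolymph, 18.3% over midgut and 15.1% over silk gland, beside the shares called higher given above. Many of the calls passed the filter only through the group with the higher value, among them 4 of the 6 higher and 8 of the 10 lower over midgut, 2 of the 8 higher over hemolymph and 4 of the 7 higher over silk gland. Fatty acid synthase (LOC114352958) had the highest fat body mean of the list, at 2647 FPKM against 21.2 in hemolymph, 5.77 in midgut and 110 in silk gland. Of 19 models for fat storage and mobilisation, 10 of 14 tested were higher in fat body over hemolymph, 9 over silk gland and 6 over midgut, with 2 lower over midgut only, and 2 of the 10 and 2 of the 9 passed the filter only through fat body. Among them the lipid droplet protein LOC114353389 had 603 FPKM in fat body and perilipin-4-like (LOC114357531) had 357 FPKM.

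Receptors that take up lipoproteins were counted in the same way. Of 18 models described as lipoprotein, vitellogenin or class B scavenger receptors, 5 were higher and 1 lower of 7 tested in fat body over hemolymph, 5 higher and 0 lower of 9 over midgut, and 4 higher and 4 lower of 11 over silk gland. Of these, 3, 4 and 4 of the models called higher, and all 5 called lower, passed the filter only through the group with the higher value, so the counts are a description. The very low-density lipoprotein receptor-like model LOC114350390, of the receptor family that binds lipophorin in insects, had the highest fat body mean of the list with 77.7 FPKM, and its mean was 91.7 FPKM in silk gland. The models LOC114366683 (39.1 FPKM in fat body) and LOC114357121 (9.82 FPKM), both related to low-density lipoprotein receptors, were called higher over all 3 tissues. So were LOC114361141 (1.67 FPKM), also related to these receptors, and the class B scavenger receptor model LOC114366480 (3.2 FPKM). Of these, LOC114366683 passed the filter only through fat body over midgut and silk gland, and the others did so over each tissue. LOC114366480 was called lower in fat body than in whole 3rd instar larvae (11.9 FPKM). Between adult and pupa 2 of the 18 were higher and 5 lower of 9 tested, where 21.9% of all genes were higher and 25.0% lower. Between 1st instar and embryo 1 was higher and 9 were lower of 14 tested, where 34.6% of all genes were higher and 24.7% lower. In both pairs most of these calls again passed the filter through the higher group alone.

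The gene models with the most similar pattern were sought among 11906 models with a description and a mean of at least 1 FPKM, by Pearson correlation of log2(FPKM + 1) over the 30 libraries. The libraries come from 10 groups and share the authors' scaling, so the correlation is a description of their pattern. The 3 models most like LOC114366658 were carboxypeptidase N subunit 2 (LOC114360639, r = 0.943), an MD-2-related lipid-recognition protein-like model (LOC114353160, r = 0.933) and a lysozyme-like model (LOC114353595, r = 0.925). The member LOC114355821 was at place 7 with r = 0.882. Most like LOC114355821 were a 27 kDa hemolymph protein-like model (LOC114365355, r = 0.924), an undescribed model (LOC114355531, r = 0.918) and pancreatic lipase-related protein 2 (LOC114364296, r = 0.900). The order for LOC114352983 differed, with innexin inx1 (LOC114352434, r = 0.909), prolow-density lipoprotein receptor-related protein 1 (LOC114357121, r = 0.871) and low-density lipoprotein receptor-related protein 1B-like (LOC114366683, r = 0.862) first, and LOC114366658 at place 7 (r = 0.825). With LOC114355821 its correlation was 0.582.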

How the data were processed

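RNA-seq libraries were made from poly(A) RNA. According to the methods, the authors aligned cleaned reads with HISAT2 (version 2.0.5 in the submitters' processing notes) and estimated expression with RSEM. The notes also name a mouse genome build, which does not match the scaffold names of the table. The deposited FPKM carry no unit in the header, and the unit was found from the values: multiplied by gene length, 100.0% of those worth at most 200 fragments lay within 0.02 of whole fragments in each library. Members and gene lists were chosen with earlier results of these data known, and 4 names caught by mistake were left out of the marker lists. The genes named are the members, models sharing their domain label, single marker genes, and the first 3 of the 5 models most correlated with each member. In the lists of lipid metabolism and receptor genes, the model with the largest fat body mean is named. Models called over all 3 tissues are named in part only. Replicate libraries differed beyond counting noise and all were kept. The ratios were chosen after values were seen, and compared by exact permutation test of log2 ratios. Coordinates come from the table, and RefSeq symbols from a later assembly. Replicate numbers were checked for pairing by correlating deviations from group means. Libraries of the 1st and 3rd instar with the same number deviated together (0.34, 0.62 and 0.14), and no other comparison had all 3 above 0.1. Tests used limma 3.58.1 in R 4.3.3 with a pseudocount of 1, and were tried on simulated data. Alternatives were a pseudocount of 0.1, no filter, all libraries in 1 fit, a replicate block, scaling by recovered fragments, limma-voom on them, and leaving out each library. For the 3 neighbouring stage pairs outside the consecutive ones they were added after the data were seen. Python 3.11.15, numpy 2.4.6, pandas 2.3.3, scipy 1.17.1 and matplotlib 3.10.9 served for the rest.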

Additional observations from a re-analysis of the deposited data

How the results depend on the processing

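Of 528 values under alternative settings for 44 fold changes, 504 kept direction where called and side of the threshold, 13 lost a call, 11 gained one, and none reversed a call. The paired analysis with a replicate block changed none of 44 calls, and gave for LOC114355821 in 3rd over 1st instar 2.25 (adjusted p = 0.00967). By recovered fragments and by limma-voom, LOC114366658 became called in 1st instar over embryo (-1.78 and -1.81) and hemolymph over silk gland (2.30 and 2.69), and LOC114355821 lost its call in adult over pupa (0.65 and 0.65) and midgut over silk gland (-0.56 and -0.57). With all stages in 1 fit, LOC114355821 in adult over pupa kept its value of 1.40 without a call. Without the filter, LOC114352983 in 1st instar over embryo (-2.81) and LOC114355821 in 3rd over 1st instar (2.25) lost theirs. Leaving out each library in turn gave -1.19 to -0.11 for LOC114366658 and -3.77 to -2.08 for LOC114352983 in 1st instar over embryo, and 2.02 to 2.68 in 3rd over 1st instar and -1.77 to -1.12 in 5th over 3rd instar for LOC114355821. The cause was not tested. Depth limits the short model LOC114352983 most, which had under 10 fragments in 8 libraries.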
